A study of Mus musculus with 19 samples.

Results

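The imprinted H19-Igf2 and Kcnq1ot1 domain was taken as every 2 kb tile between 149600001 and 150750000 on mouse chromosome 7 (build NCBIM37), together with 9 member genes that lie inside it: H19, Igf2, Ins2, Ascl2, Kcnq1, Kcnq1ot1, Cdkn1c, Slc22a18 and Phlda2. This gave 575 of the 1327469 tiles of the genome, and 9 of the 26226 genes that were measured. The domain was set by position and the members by name, with earlier results of these data known. The domain spans 1.15 Mb and holds 26 annotated genes.

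Chromatin immunoprecipitation followed by sequencing (ChIP-seq) of 3 repressive histone marks, H3K27me3, H3K9me2 and H3K9me3, was available from mouse embryonic stem cells (ESCs) at day 4 and day 8 of Dnmt1 deletion, to see how these marks respond when DNA methylation is lost. Each mark had 6 libraries: 1 control and 1 DNMT1KO library at day 4, and 2 of each at day 8, numbered 1 and 2. A single input library (chromatin without immunoprecipitation, genotype Wildtype) gave the background. The control libraries carry the genotype label Wildtype and the DNMT1KO libraries the label Dnmt1 KO. The knockout cells were Dnmt1 loxP/loxP ESCs in which tamoxifen (4OHT) switched on Cre, the enzyme that cuts out the loxP-flanked exons, and all cells grew in serum with LIF, with or without feeder cells. The strain is E14 by the labels and C57BL/6 by the study's methods, and whether controls received tamoxifen was not given in the sources used here. Neither source says that libraries 1 and 2 came from separate cultures, so p-values measure only the spread between these libraries, which may be technical. The study's methods describe the ChIP-seq as a single measurement, and its authors called no significant differences for that reason. Day 4 has 1 library per group, so its values carry no test. Ratios at day 8 set the libraries of the same number side by side for description only, since the numbers do not establish pairing.

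Imprinted genes are expressed from either the maternal or the paternal chromosome, and the choice is set by control regions that are methylated in only the egg or the sperm. The H19 control region is methylated on the paternal chromosome. On the unmethylated maternal copy CTCF binds there and insulates Igf2 from its enhancers, so H19 is expressed from the mother and Igf2 from the father. The Kcnq1ot1 control region lies at the promoter of Kcnq1ot1 inside Kcnq1 and is methylated on the maternal chromosome. The unmethylated paternal copy gives the long antisense RNA Kcnq1ot1, which is known for silencing Cdkn1c, Slc22a18, Phlda2 and other neighbours in cis with the help of H3K27me3. The zinc finger protein ZFP57 recognises the methylated letters TGCCGC at such regions and is linked to H3K9me3 there. ChIP-seq reads from both parental copies were counted together here, so no value is specific to a parental allele, and DNA methylation itself was not analysed here.

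The sequence of the H19 control region is shown first because the letters of both factors stand side by side in it. The tile chr7:149766001-149768000 lies between genes, 1953 bases upstream of the H19 start, and holds 63 CpG, 6 matches to TGCCGC and 5 to GGNGGCAG, the core letters of the CTCF motif, counting both strands. At 3 places TGCCGC is followed after 2 bases by GGNGGCAG on the same strand, which is the strand of H19 itself. These stretches, read 5′ to 3′ on the minus strand from the NCBIM37 genome, are chr7:149766198-149766245, chr7:149767679-149767726 and chr7:149767923-149767970, at 2150, 3631 and 3875 bases upstream of the H19 start. Capitals mark the paired motifs with the 2 bases between them.
H19 site 1: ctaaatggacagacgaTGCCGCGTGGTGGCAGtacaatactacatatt
H19 site 2: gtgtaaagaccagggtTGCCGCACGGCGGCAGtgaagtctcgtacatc
H19 site 3: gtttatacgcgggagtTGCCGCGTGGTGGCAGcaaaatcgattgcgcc
The motifs do not overlap within the pair. Where the N of GGNGGCAG is C, that motif contains the reverse complement of TGCCGC, so the counts of the separate motifs share letters in site 2. TGCCGC occurred at least once in 10.9% of the 1278688 tiles of known sequence and at least 5 times in 0.0288%. GGNGGCAG occurred at least once in 35.7% and at least 5 times in 0.159%. The pair with its 2-base gap had 29 matches in the genome, in 26 tiles, and the H19 control region tile alone held 3 of them, the other tiles 2 or fewer. These are matches of letters, not measured binding sites.

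Kcnq1ot1 is absent from the annotation of the build used here, so its start was placed by an exact match of its RefSeq promoter sequence (table of build GRCm38), at base 150482452 of chromosome 7 on the minus strand. Its 3′ end was placed by the RefSeq transcript length of 83437 bases, not by a match, so every value over its body rests on that length. The promoter is shown because the start decides which tile is the control region. It runs from 250 bases before the start, in lower case, to the first 50 transcribed bases, in capitals, at chr7:150482403-150482702 on the minus strand, holds 9 CpG, and contains no TGCCGC on either strand.
Kcnq1ot1 promoter: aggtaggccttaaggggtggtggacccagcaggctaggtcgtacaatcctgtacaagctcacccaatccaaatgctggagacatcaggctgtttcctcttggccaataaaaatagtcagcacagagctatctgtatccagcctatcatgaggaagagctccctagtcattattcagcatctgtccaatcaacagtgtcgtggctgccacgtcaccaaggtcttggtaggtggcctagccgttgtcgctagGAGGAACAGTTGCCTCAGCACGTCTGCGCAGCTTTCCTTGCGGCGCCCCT
The next tile in the direction of transcription, chr7:150480001-150482000, is denser: it holds 78 CpG and 3 TGCCGC, against 36 CpG and 0 TGCCGC in the tile with the start, chr7:150482001-150484000. All 3 matches fall in the 300 bases at chr7:150481460-150481759, printed from the minus strand with TGCCGC, or its reverse complement GCGGCA, in capitals. This stretch has 31 CpG.
Kcnq1ot1 next tile: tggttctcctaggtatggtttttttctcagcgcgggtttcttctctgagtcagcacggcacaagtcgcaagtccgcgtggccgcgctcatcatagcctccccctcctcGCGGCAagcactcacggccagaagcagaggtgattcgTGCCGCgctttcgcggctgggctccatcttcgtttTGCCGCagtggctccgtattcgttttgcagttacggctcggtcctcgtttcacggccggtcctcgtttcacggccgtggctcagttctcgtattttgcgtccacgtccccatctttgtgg
Both tiles lie inside Kcnq1, away from its exons. The next tile lies within Kcnq1ot1, while most of the start tile lies upstream of the Kcnq1ot1 start. Values over the Kcnq1ot1 body count the start tile whole. ChIP-seq has no strand, so reads of Kcnq1ot1 cannot be told apart from those of Kcnq1 on the other strand.

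The deletion was looked at in a Dnmt1 tile that was named by earlier results of these data, so its values are a description. In the Dnmt1 tile that holds exons 4 and 5 on chromosome 9, the 6 DNMT1KO libraries of day 8 held 1 read together and the 6 control libraries 49, a ratio of 0.0216 after scaling for depth, with a 95% exact binomial interval of 0.000535 to 0.126. At day 4 the 3 DNMT1KO libraries held 9 reads against 23, a ratio of 0.350 with an interval of 0.143 to 0.786. Over the other 23 Dnmt1 tiles the ratio was 1.245 (1.142 to 1.358) at day 8 and 1.038 (0.9186 to 1.173) at day 4. ChIP libraries held 14627174 to 26181489 reads in tiles, except H3K9me3 DNMT1KO library 1 of day 8 with 5669098 and a median of 3 reads per tile. Every H3K9me3 value of that library is therefore less precise than the others. As a check of the cell type, the promoters of 8 developmental genes carried H3K27me3 at a median of 29.4- and 21.3-fold over the input in the day 8 controls, and those of 8 pluripotency genes at 0.845- and 0.705-fold. The promoters of 6 fibroblast genes, which a feeder layer would use, stood at 6.95- and 5.21-fold. None of the promoters of the developmental and fibroblast lists passed the test in any mark, and among the pluripotency genes 1 promoter was called lower in H3K27me3.

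H3K27me3 was the main mark of the domain in control cells. Of the 507 tiles with at least 10 input reads, 237 (46.7%) were at least 2-fold over the input in both day 8 controls, in 72 separate runs. H3K9me2 reached that level in 29 tiles and H3K9me3 in 19. Of the 237 H3K27me3 tiles, 22 were among the 29 of H3K9me2 and 5 among the 19 of H3K9me3.

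**Figure D1:**
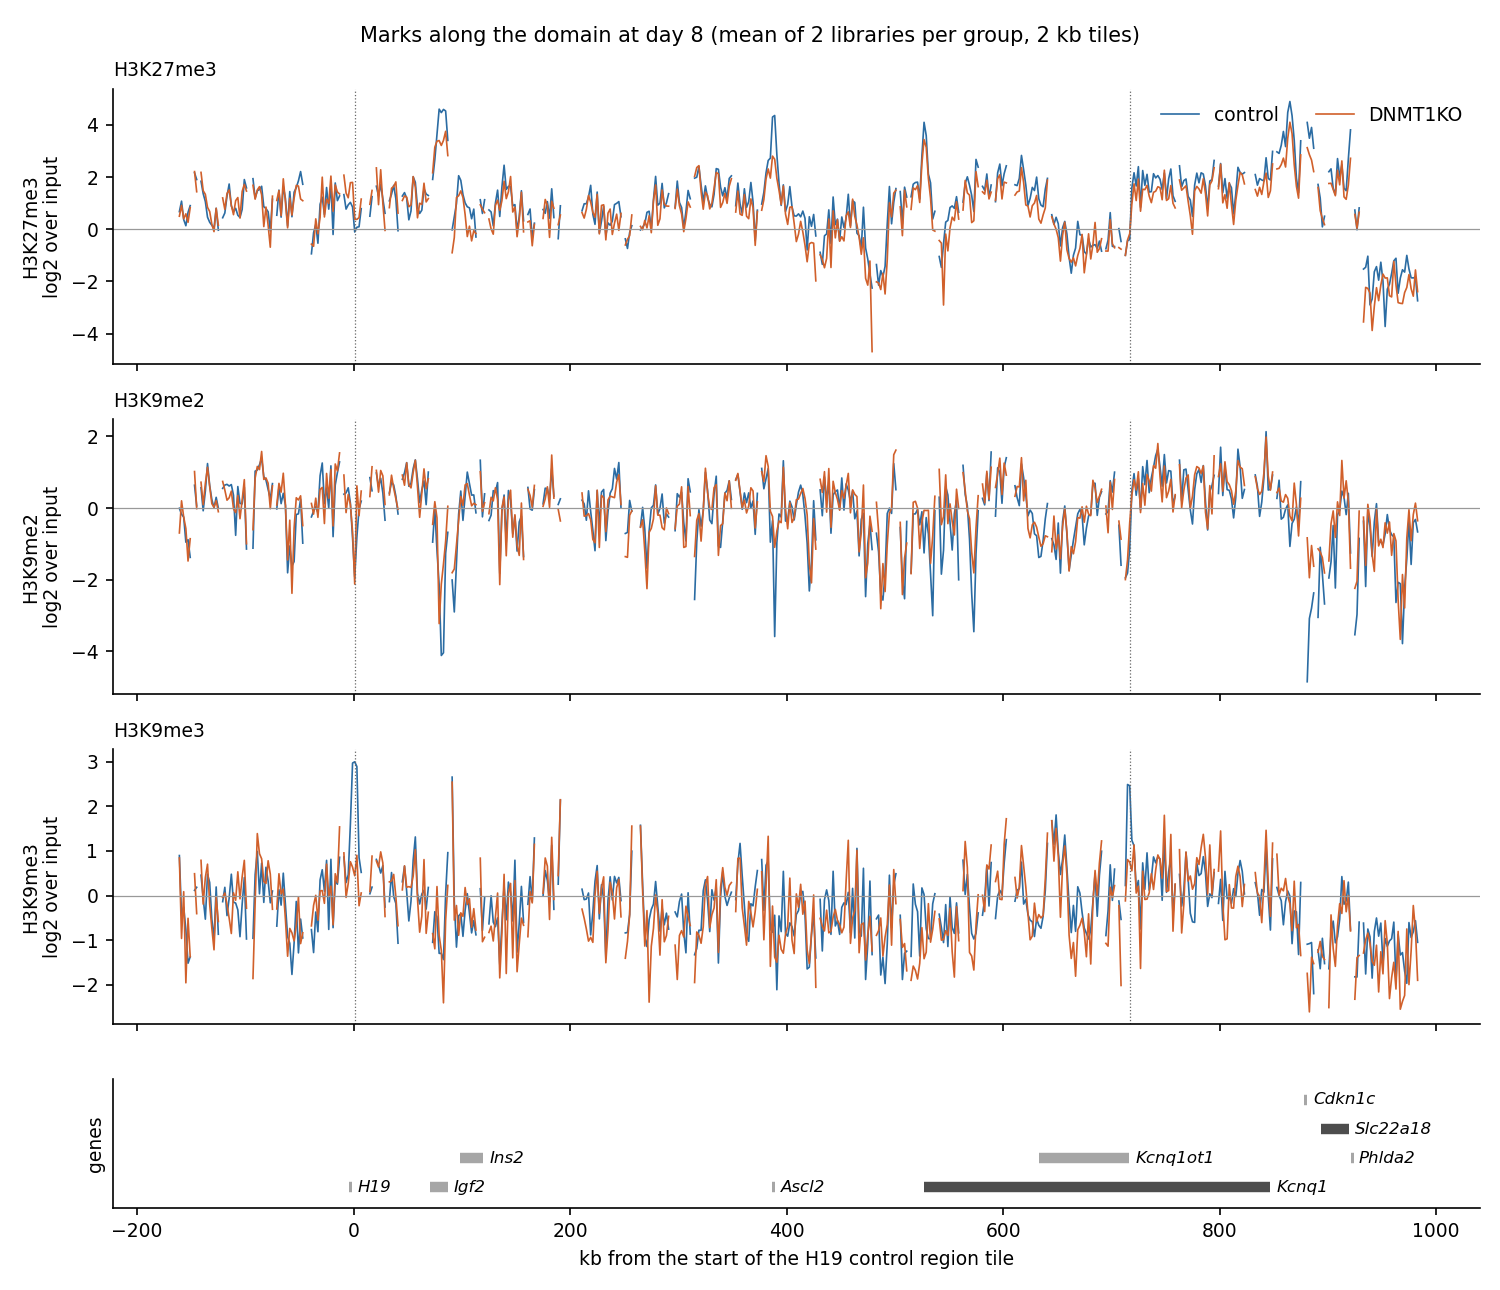
Mean log2 enrichment over the input at day 8 for H3K27me3, H3K9me2 and H3K9me3 (top to bottom) in control (blue) and DNMT1KO (orange) cells, per 2 kb tile with at least 10 input reads, against the distance in kb from the start of the H19 control region tile. Bars mark the member genes (dark, plus strand, light, minus strand) and dotted lines the H19 control region and the Kcnq1ot1 start. The blue H3K9me3 peaks at both dotted lines are lower in orange, while the tall H3K27me3 peaks over Igf2, Ascl2 and between Kcnq1 and Cdkn1c remain visible in both.

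The 4-tile run of H3K9me3 from 149762001 to 149770000 was the longest of the mark in the domain, and it covers most of H19 with its control region. In the control region tile the control libraries held 127 H3K9me3 reads at day 4, and 235 and 103 in libraries 1 and 2 of day 8. The DNMT1KO libraries held 102, 20 and 10 reads in the same order. Scaled to the library total (RPM, reads per mega-read counted in tiles) these are 7.23, 12.5 and 5.32 RPM in control cells. In DNMT1KO cells they are 4.57, 3.53 and 0.514, so that all 3 DNMT1KO libraries lay below all 3 controls. The share of all tiles that separate in this way was not counted. Against the input, with 19 reads in this tile, the controls stood 7.24-, 12.5- and 5.32-fold higher, and the DNMT1KO libraries at 4.58-, 3.53- and 0.514-fold. In DNMT1KO library 2 of day 8 the tile was thus at or under the level of the input, with an interval of 0.213 to 1.16.

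The ratio of DNMT1KO to control was 0.632 at day 4, with a 95% exact binomial interval of 0.482 to 0.827, and 0.282 (0.169 to 0.445) and 0.0966 (0.0450 to 0.185) for libraries 1 and 2 of day 8. These intervals cover counting error only. The mean log2 difference at day 8 was -2.60, a level 6.06-fold lower. The SD of the log2 level over 2 libraries was 0.87 in control and 1.97 in DNMT1KO cells, which gives the difference an SE of 1.52, while limma, which draws on the spread of all tiles, gave an SE of 0.50. Among the 1256638 tiles tested for H3K9me3 this fall ranked 151. Its adjusted p in limma was 0.0957, so the tile did not pass the threshold of 0.05 over all tiles. Of the 13 alternative analyses 7 came under the threshold, some of them with 1 library left out, and the adjusted p reached 0.805. Left out in turn, DNMT1KO library 1, DNMT1KO library 2, control library 2 and control library 1 gave log2 differences of -3.99, -1.21, -3.22 and -1.98. Those fits leave 1 library in a group, so only the size is given. The value thus varies with the library, while its direction was the same in all 13. An exact permutation test of 2 against 2 libraries cannot give a two-sided p below 0.333.

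The lower H3K9me3 was centred on the control region and extended to both sides. The neighbouring tile on the H19 side holds the start and first exonic bases of H19 and lies mostly upstream of the gene. It went from 63, 144 and 56 reads to 76, 11 and 8, a day 8 log2 difference of -2.40 (limma SE 0.47, adjusted p 0.106). The far neighbour went from 104, 137 and 84 reads to 70, 15 and 14, a difference of -2.03 (limma SE 0.41, adjusted p 0.148). Farther out the difference was smaller: -0.88 in the tile over most of H19 and Mir675, the microRNA that H19 carries, and -1.14 in the second tile on the far side, with limma adjusted p of 0.635 and 0.558. At day 4 the H19-side neighbour was at 3.59 RPM in control and 3.41 in DNMT1KO cells, a ratio of 0.950 (0.671 to 1.35). The far neighbour was at 5.92 and 3.14, a ratio of 0.530 (0.386 to 0.724) and a log2 difference of -0.92, with 1 library per group. Day 4 differences of that size also stood elsewhere in the domain, such as -0.93 in the tile starting at 149812001 and -0.82 in that at 149684001.

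Both Kcnq1ot1 tiles also carried H3K9me3 in control cells and held less of it at day 8. The tile with the start went from 67, 115 and 55 reads in the controls (day 4, then libraries 1 and 2 of day 8) to 64, 14 and 12 in DNMT1KO cells. The next tile, with the 3 TGCCGC shown above, went from 72, 109 and 69 to 76, 15 and 14. Summed over both, the level in RPM was 7.92, 11.9 and 6.40 in control and 6.28, 5.12 and 1.34 in DNMT1KO cells. At day 8 the libraries of the groups did not overlap, but the share of all tiles that separate in this way was not counted. At day 4 the ratio was 0.793 with an interval of 0.623 to 1.01, which includes 1.

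The mean log2 difference of the summed tiles at day 8 was -1.74, a level 3.35-fold lower, with an SE of 1.07 from the SD of the log2 level over 2 libraries (0.64 in control and 1.37 in DNMT1KO cells). In the limma fit the start tile differed by -1.76 (SE 0.43, adjusted p 0.406) and the next tile by -1.72 (SE 0.41, adjusted p 0.366), ranks 6790 and 7988 of 1256638 falls. Neither passed the threshold. Without DNMT1KO library 1 they were at -2.76 and -2.66, without DNMT1KO library 2 at -0.76 and -0.78, and without control library 1 at -1.20 and -1.37. Without control library 2 the start tile was at -2.31. Those fits leave 1 library in a group, so only the size is given. The neighbours showed less: -0.38 one tile farther into Kcnq1ot1 and -0.74 upstream of the start. No test of the difference between both regions was made.

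**Figure D2:**
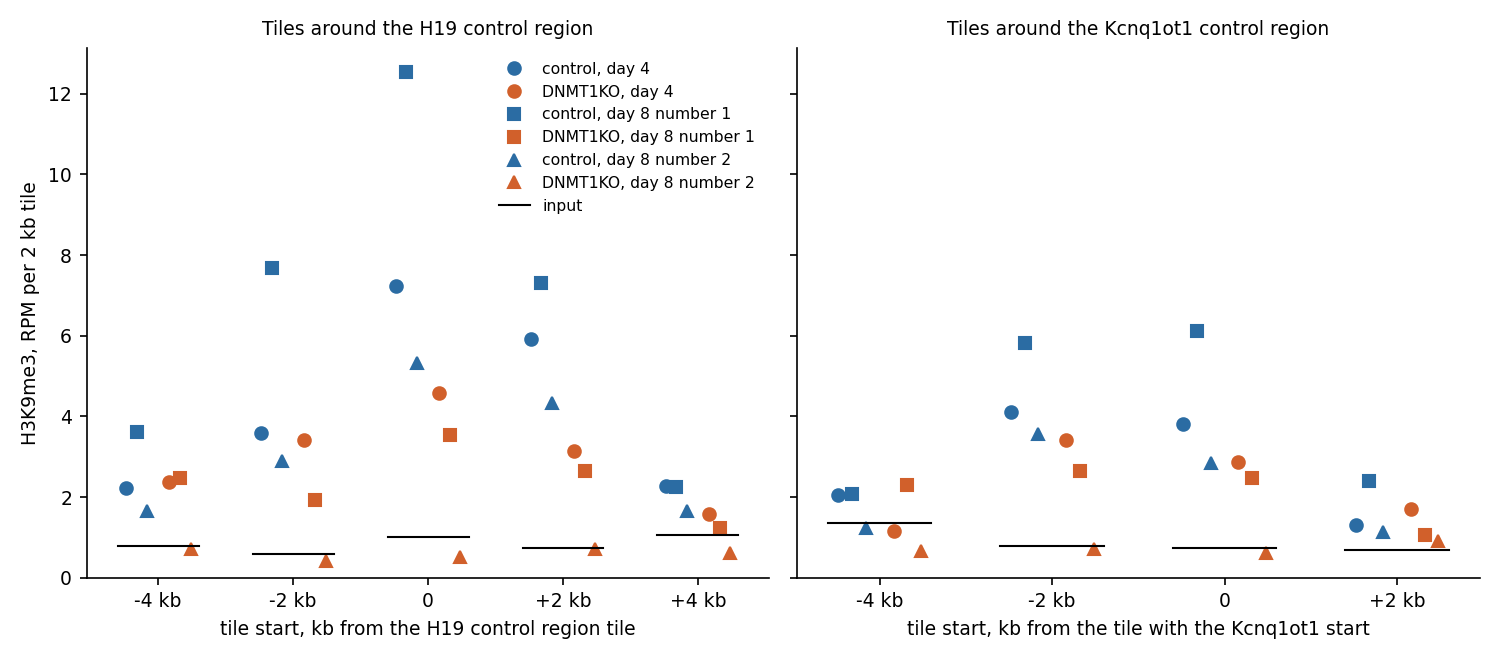
H3K9me3 in RPM per 2 kb tile for each library around the H19 control region (left) and the Kcnq1ot1 start (right), control in blue and DNMT1KO in orange, circles for day 4, squares and triangles for libraries 1 and 2 of day 8, and a black line for the input. In the H19 control region tile the controls sit between 5.32 and 12.5 and the DNMT1KO libraries between 0.514 and 4.57.

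To see whether H3K9me3 was lower elsewhere in the domain, tiles were chosen on the day 4 control alone, so that the day 8 libraries played no part in the choice. This gave 41 tiles at least 2-fold over the input, of which 7 start within 4 kb of the H19 control region tile (5) or of the Kcnq1ot1 start tile (2). That grouping was made after the values were seen, so it is a description. At day 8 the 7 had mean log2 differences from -2.60 to -0.88. The other 34 ran from -1.08 to 1.08, so the groups overlapped at their edges, with a median of -0.04, 0.14 for libraries number 1 and -0.20 for number 2, and 7 of them were lower for both numbers. Over the 466 tiles of the domain below 2-fold the median was -0.16, with -0.18 for libraries number 1, which include the shallowest library, and -0.0074 for number 2. A tile chosen after its values were seen shows the contrast: chr7:149856001-149858000, over an exon of Igf2as upstream of Igf2, held 84, 112 and 108 control reads and 81, 37 and 84 DNMT1KO reads, with a day 8 log2 difference of -0.12, and stood at 2.65 on the log2 scale over the input in control and 2.54 in DNMT1KO cells.

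**Figure D3:**
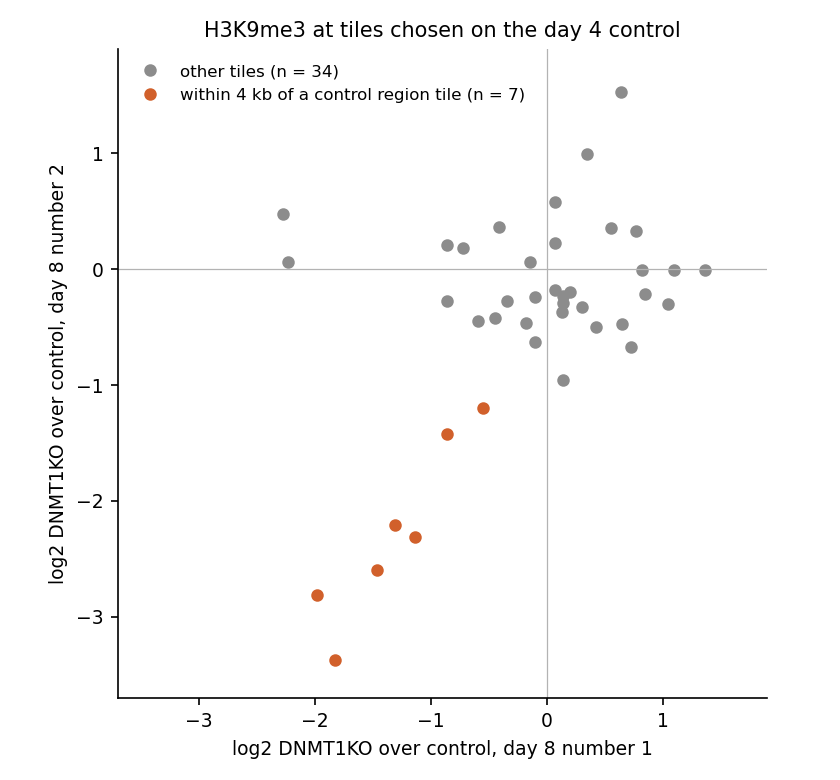
Log2 difference of H3K9me3 between DNMT1KO and control between the libraries number 1 (horizontal) and number 2 (vertical) of day 8 for the 41 domain tiles at least 2-fold over the input in the day 4 control. The 7 tiles within 4 kb of the H19 control region tile or the Kcnq1ot1 start tile (orange, grouped after the values were seen) lie at the lower left with mean differences of -2.60 to -0.88, and the 34 others (grey) run from -1.08 to 1.08.

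Tested tile by tile, no domain tile passed the limma threshold for any mark. H3K27me3 had 0 calls in 573 tiles, where 0.244% of all tiles were called. H3K9me2 had 0 in 572 (0.0% of all tiles) and H3K9me3 0 in 573 (0.00851% of all tiles). At an unadjusted p under 0.05 there were 101, 33 and 33 domain tiles, which is 17.6%, 5.77% and 5.76% of them, beside 9.66%, 6.44% and 7.84% of all tiles. With limma-voom, which weights tiles by their reads, 2 H3K27me3 tiles and 5 H3K9me3 tiles of the domain were called, all lower, and 0 of H3K9me2. Over all tiles limma-voom called 0.431%, 0.0386% and 0.000956% in that order of marks. Among the 115 domain windows of 10 kb, 1 was called, lower in H3K27me3, where 1.19% of all windows were called and 0.831% were called lower. H3K9me2 and H3K9me3 had 0 domain windows called, with 0.0% and 0.0586% of all windows, and limma-voom called 0 and 2, beside 0.0% and 1.65% of all windows. The window that holds the H19 control region went from 353, 606 and 295 H3K9me3 reads to 328, 65 and 65, a log2 difference of -1.83 (limma SE 0.39, adjusted p 0.0752). It ranged from -2.72 without DNMT1KO library 1 to -0.94 without DNMT1KO library 2, in fits that leave 1 library in a group. The window with the Kcnq1ot1 start had -1.06 (SE 0.27, adjusted p 0.102 in limma) and ranged from -1.53 to -0.58 with 1 library left out. A test of the day 8 difference against the day 4 difference called 0 tiles, windows, gene bodies or promoters of the genome in any mark, and 12 domain tiles of H3K9me3 had an unadjusted p under 0.05 in it, 2.09% of them beside 2.23% of all tiles.

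Read along the chromosome in segments cut at the member genes, the H3K9me3 ratio of DNMT1KO to control at day 8 was lowest, for both library numbers, in the segment of H19 and its control region. That 10 kb segment stood at 5.17-, 8.30- and 3.91-fold over the input in control and 3.78-, 2.95- and 0.858-fold in DNMT1KO cells, with day 8 ratios of 0.355 and 0.219. In the part of Kcnq1 shared with Kcnq1ot1 the day 8 ratios were 0.752 and 0.822. In the 66 kb from the control region to Igf2 they were 0.946 and 0.945, and in the part of Kcnq1 beyond Kcnq1ot1 0.992 and 1.10. The sum over the whole domain gave 0.977 at day 4 and 0.887 and 0.944 at day 8. H3K9me2 sums were 0.987, 1.10 and 0.971, and those of H3K27me3 0.918, 0.785 and 0.769. Among the 3 marks the H3K27me3 sum had the lowest ratio for both library numbers of day 8.

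Over the gene bodies of the members, counted in the tiles that overlap each gene, H3K9me3 fell by 0.35 on the log2 scale at Kcnq1ot1 (limma SE 0.09, adjusted p 0.0377), the only member called, where 4.47% of all gene bodies were called and 0.978% were called lower. Kcnq1ot1 went from 0.692, 0.775 and 0.721 RPM per kb in the controls to 0.629, 0.583 and 0.593, and the groups did not overlap. The share of all gene bodies that separate in this way was not counted, so this is a description. It was called in 7 of 14 alternatives, and not without control library 1 (adjusted p 0.387) or control library 2 (0.246). Without the 2 control region tiles its mean difference was -0.22 (SE 0.072 over 2 libraries per group), against -0.35 (SE 0.053) with them, as recomputed after the values were seen. H19, the growth-restraining long noncoding RNA at the left of the domain, went from 1.16, 2.08 and 0.930 RPM per kb to 1.17, 0.882 and 0.351. Its difference of -1.31 was the largest of the members but just missed the threshold (limma SE 0.36, adjusted p 0.0518), and the part of its body outside the control region neighbour had -0.59 (SE 0.65 over 2 libraries per group). Left out in turn, DNMT1KO library 1, DNMT1KO library 2, control library 2 and control library 1 gave H19 values of -1.97, -0.64, -1.88 and -0.73.

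The other 7 members had H3K9me3 body differences between -0.26 (Igf2) and 0.23 (Cdkn1c), and their control levels ran from 0.310- to 1.28-fold over the input. The median of the 9 was -0.15, beside 0.04 over all 25972 genes. At promoters, the tiles over the 1 kb before each start, 0 of 9 members passed in limma where 0.0425% of all promoters were called. The lowest were H19, with -2.33 (adjusted p 0.266), and Kcnq1ot1, with -1.71 (adjusted p 0.529), each measured in the same tile as described above. Limma-voom called both, where it called 0.108% of all promoters.

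H3K27me3 was unevenly spread over the members, and their order was the same in each of the 3 control libraries. Cdkn1c, an inhibitor of the cell cycle kinases expressed from the maternal chromosome, had the highest density with 8.08, 10.6 and 6.40 RPM per kb (day 4, then libraries 1 and 2 of day 8). Ascl2, a transcription factor of the trophoblast, followed with 5.68, 7.84 and 5.58, and Igf2, the fetal growth factor, with 4.99, 6.80 and 4.94. Phlda2, a restrainer of placental growth, held 2.63, 3.92 and 2.48. These 4 genes stood 9.93- to 35.1-fold over the input. The ranges of Cdkn1c, Ascl2 and Igf2 over the 3 control libraries overlapped, although their order was the same in each library.

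The remaining members formed a lower group. Slc22a18, a membrane transporter, held 1.30 to 1.35 and Kcnq1, a potassium channel subunit, 1.13 to 1.19 RPM per kb. Ins2, an insulin gene, held 0.818 to 1.04, H19 0.657 to 0.966 and Kcnq1ot1 0.515 to 0.578, the last close to the input at 1.00- to 1.12-fold. The annotation used gives Ins2 a length of 20855 bases. Its body values cover that whole extent, and its promoter is the stretch before it. Within Kcnq1 the mark was lower over the stretch shared with Kcnq1ot1: in the controls the 106 kb before it stood at 3.56- to 3.69-fold and the 130 kb beyond it at 3.59- to 3.77-fold, while the shared 86 kb stood at 1.00- to 1.12-fold. The 60 kb beyond Phlda2 were poorest, at 0.404- to 0.423-fold.

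**Figure D4:**
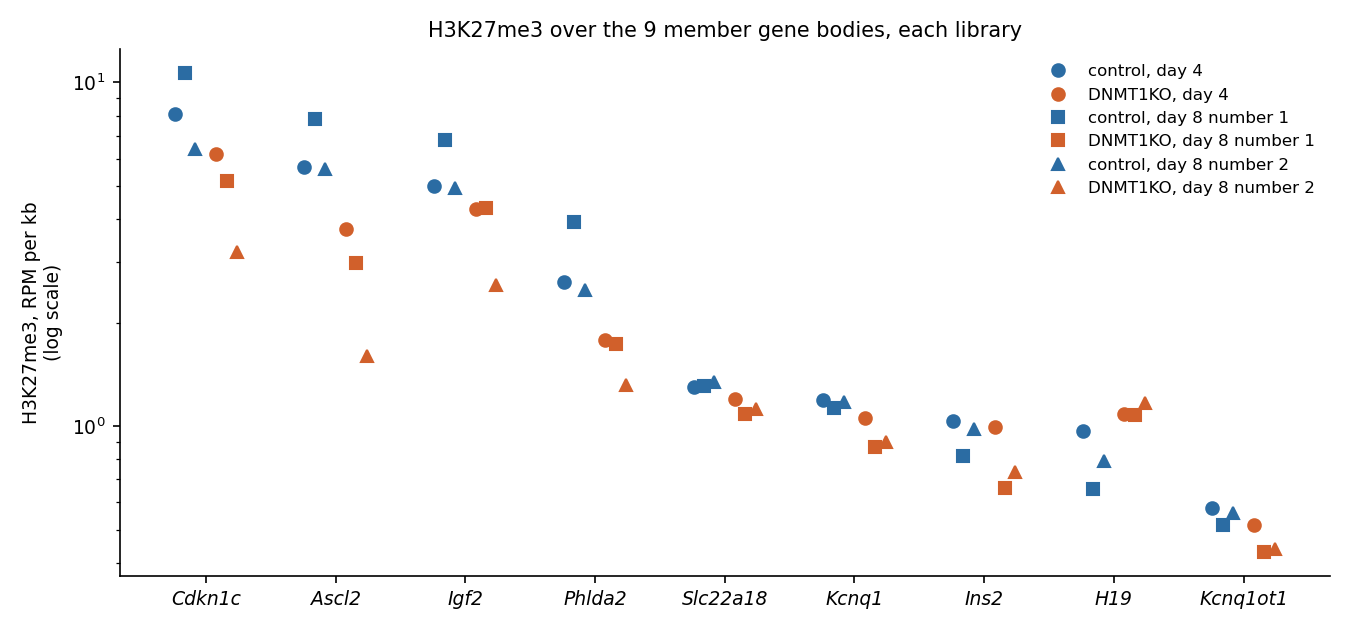
H3K27me3 in RPM per kb (log axis) over the bodies of the 9 member genes, ordered by the control mean, for each library: control in blue, DNMT1KO in orange, circles for day 4, squares and triangles for libraries 1 and 2 of day 8. At day 8 the DNMT1KO libraries lie below the controls at every gene except H19, where they lie above. How many of all gene bodies separate in this way was not counted.

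At day 8 H3K27me3 was lower in DNMT1KO cells over 8 of the 9 member bodies, and higher over H19, with Cdkn1c alone turning direction among the members when GC content was corrected for. None of these differences passed the limma threshold, and neither did any gene body of the genome (0.0% called), although 7 of the 9 had an unadjusted p under 0.05, as had 22.5% of all gene bodies, and limma-voom also called none of the members. The median over members was -0.38, beside -0.12 over all 25971 genes. The bodies of the 8 developmental genes, at a median of 21.6- and 16.3-fold over the input in the day 8 controls, had a median of -0.94. Their differences ran from -1.37 to -0.15, and 7 of the 8 had an unadjusted p under 0.05 in limma. Lower H3K27me3 was thus not particular to the members. Ascl2 went from 7.84 and 5.58 RPM per kb to 2.99 and 1.60, and at day 4 from 5.68 to 3.75. Its log2 difference of -1.60 (limma SE 0.30, adjusted p 0.0897) was the largest of the members and ranked 176 of 25971 genes. With GC correction it was -0.63 (adjusted p 0.0386 in limma), and Phlda2 then had the larger difference with -0.89.

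The genes of the Kcnq1ot1 side followed. Phlda2 went from 3.92 and 2.48 to 1.74 and 1.32 (-1.04, adjusted p 0.111 in limma) and from 2.63 to 1.78 at day 4. Cdkn1c went from 10.6 and 6.40 to 5.16 and 3.20 (-1.02, adjusted p 0.127 in limma) and from 8.08 to 6.18 at day 4. Removing the dependence on GC content turned the Cdkn1c difference to 0.64, so its direction rests on that choice. For Phlda2 and Cdkn1c, as for Ascl2, both DNMT1KO libraries of day 8 lay below both controls.

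Igf2 went from 6.80 and 4.94 to 4.30 and 2.58 (-0.80, adjusted p 0.139 in limma), and at day 4 from 4.99 to 4.27. Kcnq1 had -0.38, Ins2 -0.36, Kcnq1ot1 -0.30 and Slc22a18 -0.27, with limma adjusted p from 0.104 for Kcnq1 to 0.252 for Slc22a18. At each of these genes too the day 8 libraries of the groups did not overlap. How many of all gene bodies separate in this way was not counted, so for all members this is a description. Within Kcnq1 the day 8 ratios were 0.745 and 0.739 before Kcnq1ot1, 0.837 and 0.788 in the shared part and 0.777 and 0.783 beyond it, with no test between these parts.

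H19 was the exception. Its H3K27me3 was 0.966, 0.657 and 0.793 RPM per kb in the controls and 1.08, 1.07 and 1.17 in DNMT1KO cells, a day 8 difference of 0.63 (limma SE 0.19, adjusted p 0.134), with no overlap between the groups. The tile with the H19 start went from 35, 15 and 35 reads to 39, 40 and 57 (0.96, adjusted p 0.256, and 0.40 to 1.53 with 1 library left out), the tile over most of the gene from 49, 39 and 32 to 46, 52 and 79 (0.76, adjusted p 0.333), and the control region tile from 22, 20 and 20 to 21, 26 and 35 (0.50, adjusted p 0.642, all in limma). These are the tiles in which H3K9me3 was lower. At day 4 the ratios for these tiles were 1.32, 1.11 and 1.13, with intervals that include 1. In the 2 Kcnq1ot1 tiles, which held 22 to 28 control reads together, H3K27me3 gave ratios of 1.30 and 1.35 at day 8, and both intervals include 1. Taken singly, the start tile was at 0.634 and 2.17 and the next tile at 1.91 and 0.541, so the ratios of both library numbers differed in direction in each tile.

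Along the chromosome, the H3K27me3 ratio of DNMT1KO to control at day 8 was 1.09 and 0.906 from the left edge to H19, and 1.16 and 1.09 from the control region to Igf2. It was 0.632 and 0.523 over Igf2, 0.874 and 0.865 between Igf2 and Ascl2, and 0.381 and 0.286 over Ascl2. In the dense 30 kb between Kcnq1 and Cdkn1c, which held 9.90- to 13.2-fold over the input in the controls, it was 0.608 and 0.585, and from Cdkn1c to Phlda2 0.597 and 0.652. The segments at over 5-fold in the controls thus had ratios from 0.286 to 0.652, and the others from 0.699 to 1.55. The day 8 controls enter both this split and the ratios, and the cutoff was not fixed beforehand. The day 4 control alone, which is not in these ratios, gives the same split. The tile richest in the mark, chr7:150630001-150632000 between Kcnq1 and Cdkn1c with 111 CpG, stood at 4.90 on the log2 scale over the input in control cells, with a log2 difference of -0.79 in DNMT1KO cells. These comparisons of segments are descriptions with no test.

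The called window, chr7:150180001-150190000 between Ascl2 and Kcnq1, went from 132, 108 and 115 H3K27me3 reads in the controls to 84, 66 and 68, so H3K27me3 fell there by 0.83 on the log2 scale (limma SE 0.21, adjusted p 0.0337). It was called in 9 of 13 alternatives, and not without control library 1 (adjusted p 0.59), control library 2 (0.244) or DNMT1KO library 2 (0.183). Among tiles with a mean of at least 10 reads and the same direction in all 3 comparisons, the lowest for H3K27me3 were an exon tile of Tspan32 and Gm15024, with -1.81, and both tiles of Ascl2, with -1.68 and -1.50 (limma adjusted p 0.162 to 0.189). The highest lay between Ins2 and Ascl2 with 1.21, inside Kcnq1 with 0.99, and at the H19 start with 0.96. The tile at 1.21 held only 6 and 12 control reads at day 8. Its 2 input reads are under the minimum of 10 used for the enrichment over the input. By the same choice of tiles, the lowest H3K9me2 differences were -1.48, -0.81 and -0.72 and the highest 1.49, 1.49 and 0.99. For H3K9me3 the 3 lowest were the H19 control region tile and both of its neighbours, and the highest were 1.00, 0.93 and 0.90. Tiles outside that choice can lie higher, such as the one at 1.08 given above.

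At promoters 0 of the 9 members passed for H3K27me3 in limma, where 6.89% of all promoters were called and 6.63% were called lower, and 4 had an unadjusted p under 0.05, as had 22.8% of all promoters. The median of the members was -0.58, beside -0.34 over all promoters, from -1.35 at Ascl2 to 0.95 at H19. The promoters of the 8 developmental genes had a median of -0.97. Kcnq1 had the highest promoter density after Cdkn1c and Ascl2 with 3.94, 5.48 and 4.06 RPM per kb, and went to 3.79, 3.87 and 2.29 (-0.66, adjusted p 0.337 in limma). Removing the dependence on GC content turned the differences of Igf2, Kcnq1 and Cdkn1c positive, at 0.22, 0.45 and 0.15. Of the 20 other genes of the domain on a list of neighbours, 13 were found in the annotation, and 1 of their promoters was called: H3K27me3 fell by 1.20 on the log2 scale (limma SE 0.37, adjusted p 0.0406) at Cd81, a tetraspanin, from 43, 38 and 38 reads to 28, 19 and 16. That call was lost in 8 of 14 alternatives, among them without control library 1, control library 2 or DNMT1KO library 2.

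**Figure D5:**
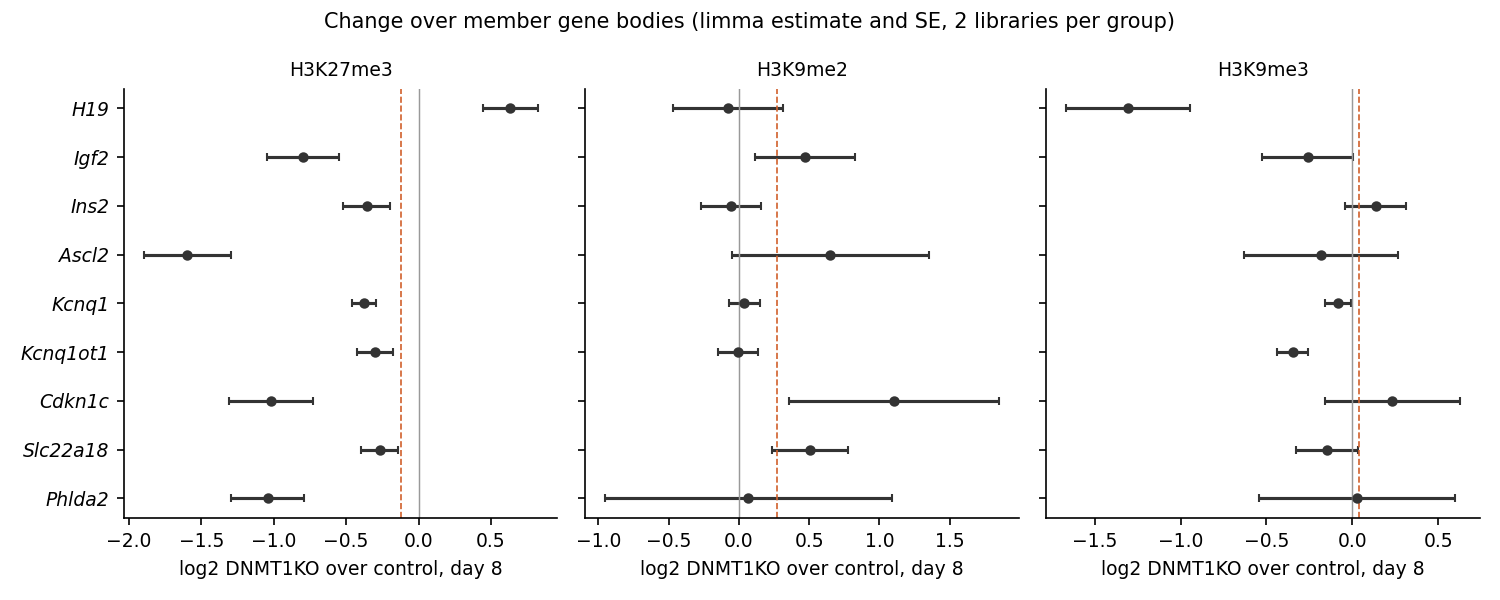
Log2 change (DNMT1KO over control, day 8) of H3K27me3, H3K9me2 and H3K9me3 over the 9 member gene bodies, as the limma estimate (point) with its SE (bar), 2 libraries per group. The orange dashed line is the median of all genes. H3K27me3 is left of 0 at 8 of 9 genes (Cdkn1c moves to 0.64 with GC correction), H3K9me3 is lowest at H19 with -1.31, and the H3K9me2 bars are long.

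H3K9me2 was sparse at the members. Ins2 and Kcnq1 were the only members above the input in all 3 controls, at 1.19- to 1.60-fold and 1.17- to 1.36-fold, and Igf2, Ascl2, Cdkn1c and Phlda2 lay at 0.185- to 0.554-fold. Beyond Kcnq1ot1 the rest of Kcnq1 held 1.58- to 1.91-fold, the highest segment of the domain beside the 66 kb from the control region to Igf2, with 1.49- to 1.88-fold. None of the 9 bodies passed in limma, where 0.0% of all bodies were called, none had an unadjusted p under 0.05, and limma-voom also called none.

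The median H3K9me2 difference of the member bodies was 0.07, beside 0.27 over all 25980 genes, and 6 were above 0 and 3 below. Centring each library on its median left 4 above 0 and removing the dependence on GC content left 1. The highest was Cdkn1c with 1.10 (limma SE 0.75, adjusted p 0.651), from 7, 6 and 9 control reads to 15, 10 and 32. Its promoter tile held 2, 0 and 0 control reads and 8, 4 and 17 DNMT1KO reads, which did not pass in limma (adjusted p 0.857), where 0.0425% of all promoters were called. In the H19 control region tile H3K9me2 was at 2, 7 and 3 control and 9, 2 and 9 DNMT1KO reads, too few to show a direction, and in the far neighbour it went from 8, 10 and 6 to 16, 21 and 27 (log2 difference 1.49, limma adjusted p 0.761). The Kcnq1ot1 start tile held 11, 4 and 9 control and 4, 10 and 13 DNMT1KO reads.

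Beside the domain, 15 other genes whose promoters are methylated in the germ line were listed, and 14 were found. Of their promoters 6 were called lower in H3K9me3 by limma, and of their bodies 9, where 0.0425% and 0.978% of all genes were. Their promoter median was -1.13, beside 0.02 over all promoters. The H19 and Kcnq1ot1 promoters, with -2.33 and -1.71, lay within the range of that list, from -3.60 to 0.66. In H3K27me3, 2 of those promoters were called lower, and in H3K9me2 none.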

How the data were processed

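The authors trimmed the reads with Trim Galore, aligned them to build NCBIM37 with Bowtie2 2.2.9, discarded alignments of low mapping quality and deposited 1 table of log2 values (log2 of observed over expected reads) for 2 kb tiles. The methods of the study describe tiles of 1 kb. The input was not subtracted, and whether duplicate reads were removed is not given in the sources used here.

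The values were whole multiples of 1 read, so reads per tile were recovered and summed into 10 kb windows, gene bodies and promoters (the tiles over 1 kb before the start), scaled to RPM (reads per mega-read counted in tiles) with a pseudocount of 0.5. Day 8 groups (2 control, 2 DNMT1KO libraries) were compared per mark in limma 3.58.1 (R 4.3.3) with a trended variance and Benjamini-Hochberg adjustment over all features at 0.05, which was tested on simulated data. Tiles were tested on the deposited log2 values. Exact binomial intervals (scipy 1.17.1) cover counting error only. ChIP libraries held 5669098 to 26181489 reads. At most 3 tiles per mark and direction were named, with a mean of at least 10 reads and the same direction for both day 8 library numbers and at day 4, ordered by size. Alternatives changed the variance trend, the test (limma-voom), centring, read minimum, pseudocount, GC correction, day as covariate, replicate block and left-out libraries. The test of day 8 against day 4, bodies without control region tiles and tiles chosen on the day 4 control, with their split by distance, were added after seeing the data. The members and lists were chosen with earlier results of these data known.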

Additional observations from a re-analysis of the deposited data

How the results depend on the processing

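The 90 values compared had 1141 alternatives, of which 801 kept their call and direction or, for counts and values with no test, moved little, 112 came past the threshold, 19 lost it, 172 moved and 37 turned direction. The cause was not tested. H3K9me3 DNMT1KO library 1 of day 8 was the shallowest with 5669098 reads. Numbers shared by control and DNMT1KO libraries do not establish pairing: the labels name no shared batch, there are only 2 pairs, and same-numbered deviations correlated at 0.04 (H3K9me3 tiles) to 0.31 (H3K27me3 bodies). With the replicate block, H3K27me3 calls in the domain were 46 tiles, 31 windows, 9 member bodies and 6 member promoters, where 2.2%, 9.33%, 29.9% and 27.1% of all such features were called, and H3K9me3 calls 6 windows, 2 bodies and 2 promoters, where 5.24%, 10.7% and 0.294% were. With the block and GC correction, H3K27me3 calls were 55 tiles, 45 windows, 6 bodies and 3 promoters (1.93%, 8.73%, 32.0% and 18.5% of all), H3K9me2 calls 1 tile and 7 windows (0.0226% and 1.02%), and H3K9me3 calls 5 tiles, 6 windows and 2 promoters (0.0516%, 1.31% and 0.085%), and the H3K9me3 difference was -2.85 at the H19 tile, -1.94 at the Kcnq1ot1 start and -1.90 at the next tile. GC correction, with or without the block, turned H3K27me3 to -0.13 at the next tile, 0.64 at the Cdkn1c body and 0.22, 0.45 and 0.15 at the Igf2, Kcnq1 and Cdkn1c promoters, and H3K9me3 to -0.0054 at the Phlda2 body. Alone it gave 5 windows and 4 bodies of H3K27me3 (1.21% and 5.51% of all) and 0 bodies of H3K9me3 (0.00385%). Limma-voom gave 2 tiles and 2 windows of H3K27me3 (0.431% and 1.5% of all). Of H3K9me3 it gave 5 tiles, 2 windows, 2 bodies and 2 promoters (0.0386%, 1.65%, 7.37% and 0.108% of all). Its H3K9me3 differences were -3.09, -2.14 and -2.04 at the H19, start and next tiles, and its H3K27me3 difference -0.10 at the next tile. Pseudocount 2 gave 2 H3K27me3 windows (1.37% of all), and 4 tiles, 1 window, 2 bodies and 2 promoters of H3K9me3 (0.029%, 0.398%, 6.26% and 0.108%). Its H3K9me3 differences were -2.42 and -1.59 at the H19 and start tiles. At least 5 reads gave 1 tile and 2 bodies of H3K9me3, with -2.60 at the H19 tile called. For this setting the share of all features called is not given here. The same holds below for no trend, day as covariate, deposited means, median centring and start tiles with neighbours. Counts under these settings therefore show nothing particular to the domain. Without a trend there were 0 H3K27me3 windows and 0 H3K9me3 bodies. Day as covariate gave 0 H3K9me3 bodies, H3K27me3 of -0.29 at the start tile and of 0.073 and -0.27 at the Ins2 and Kcnq1ot1 promoters, H3K9me2 of 0.41 and -0.10 at the H19 and start tiles, and H3K9me3 of -0.015 at the Cdkn1c body. The mean of deposited values gave 0 H3K9me3 bodies and -0.042 at Phlda2. Median centring gave 1 H3K27me3 promoter, -0.061 at the next tile, 0.0079 at the Ins2 promoter and H3K9me3 of -0.017 at Phlda2. Start tiles with both neighbours gave 1 H3K27me3 promoter and -0.18 at Kcnq1ot1. With 1 neighbouring tile on each side, H3K27me3 was 0.64 at H19 and -0.14 at Kcnq1ot1, and H3K9me2 0.14 at Kcnq1ot1 and 0.82 at H19, against -0.24 for the H19 tile alone. Leaving out 1 library gave 0 to 4 tiles, 0 to 3 windows, 0 to 5 bodies and 0 to 1 promoters of H3K27me3, 0 to 3 windows and 0 to 2 bodies of H3K9me2, 0 to 37 tiles, 1 to 20 windows, 0 to 3 bodies and 0 to 3 promoters of H3K9me3, and H3K9me3 differences of -3.99 to -1.21 at the H19 tile, -2.76 to -0.76 at the start and -2.66 to -0.78 at the next tile. Those fits leave 1 library in a group, and the number of H3K9me3 tiles called over the whole genome also moved with the library left out. These ranges of calls therefore show nothing particular to the domain. With 1 library left out, H3K9me3 was -3.52 to -1.28 and -2.97 to -1.09 at the H19-side and far neighbours and -3.44 to -1.22 and -2.71 to -0.72 at the H19 and Kcnq1ot1 promoters, and H3K27me3 was -1.17 to -0.43 and -1.39 to -0.66 at the Igf2 and Cdkn1c bodies. Without 1 library, some values also changed direction within their range. For H3K27me3 these were -0.49 to 0.94 at the start tile, -1.11 to 1.16 at the next tile and -0.46 to 0.91 at the Kcnq1ot1 promoter. For H3K9me2 they were -1.19 to 0.71 at the H19 tile and -0.012 to 1.60 at the start tile. For H3K9me3 bodies they were -0.74 to 0.21 at Igf2, -0.066 to 0.34 at Ins2, -0.54 to 0.18 at Ascl2, -0.026 to 0.49 at Cdkn1c and -0.67 to 0.72 at Phlda2.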
